A study of Mus musculus with 6 samples.

Results

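Heat shock and small chaperone genes were followed in *Clk4*-cKO hearts after injection of a virus encoding either wild-type NEXN or its phosphorylation mimic. The group holds 10 genes, chosen by name: the inducible Hsp70 genes *Hspa1a* and *Hspa1b*, the constitutive Hsp70 gene *Hspa8*, the Hsp90 genes *Hsp90aa1* and *Hsp90ab1*, the J-domain gene *Dnajb1*, and the small heat shock protein genes *Hspb1*, *Hspb6*, *Hspb7* and *Cryab*. All probes carrying 1 of these symbols were taken, 17 of the 56605 probes on the array, and 16 of them, at least 1 for each of the 10 genes, passed the filter on dim probes. All mice were male C57BL/6J animals with floxed *Clk4* alleles and the *α-MHC-MerCreMer* transgene, in which tamoxifen deletes *Clk4* in cardiomyocytes. Both groups carried this deletion, so by design they differed in the virus: 3 hearts received AAV NEXN-WT and 3 received AAV NEXN-S437E, in which glutamate replaces a serine of the actin-binding protein nexilin. The virus was of serotype AAV9 with a CMV promoter, which is not specific to cardiomyocytes, and was injected into the blood. Total RNA of each myocardium was labelled with Cy3 and hybridised to 1 array.

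Heat shock proteins are molecular chaperones that hold unfolded proteins and help them refold. Most are switched on together when heat shock factor 1 binds heat shock elements, short repeats of GAA and its complement, in front of their genes. Hsp70 proteins bind exposed stretches of a client and release them in an ATP-driven cycle, which J-domain proteins start and nucleotide exchange factors end. Hsp90 proteins act later, on signalling proteins that are close to their final fold. Small heat shock proteins need no ATP and keep unfolding proteins from clumping. In the heart αB-crystallin, the product of *Cryab*, is an abundant protein of the Z-disc and desmin network, and mutations in it cause cardiomyopathy.

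The sequences in front of *Hspa1a*, *Hspa1b* and *Hspb1* are shown first, because *Hspa1a* and *Hspa1b* had the widest spread between hearts of the members and *Hspb1*, whose spread was narrow, holds the same short motif. Each line gives the 250 bases before the annotated start, 5′ to 3′, from RefSeq on GRCm38.p6. Capitals mark matches to GAANNTTC, a pair of facing heat shock element units, and TTCNNGAA, the opposite arrangement, was searched too. Each motif reads the same on both strands. The windows lie at chr17:34972157-34972406 (minus strand) for *Hspa1a*, chr17:34959239-34959488 (minus strand) for *Hspa1b* and chr5:135887669-135887918 (plus strand) for *Hspb1*.
Hspa1a: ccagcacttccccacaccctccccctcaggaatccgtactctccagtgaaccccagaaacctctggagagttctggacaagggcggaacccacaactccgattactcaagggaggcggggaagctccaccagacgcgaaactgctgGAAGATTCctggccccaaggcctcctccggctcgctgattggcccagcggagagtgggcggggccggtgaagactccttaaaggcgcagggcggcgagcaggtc
Hspa1b: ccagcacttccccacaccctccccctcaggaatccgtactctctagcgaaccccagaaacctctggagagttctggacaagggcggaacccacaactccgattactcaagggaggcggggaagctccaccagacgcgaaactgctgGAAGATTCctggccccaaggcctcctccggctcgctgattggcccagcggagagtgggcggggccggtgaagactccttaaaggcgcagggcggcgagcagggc
Hspb1: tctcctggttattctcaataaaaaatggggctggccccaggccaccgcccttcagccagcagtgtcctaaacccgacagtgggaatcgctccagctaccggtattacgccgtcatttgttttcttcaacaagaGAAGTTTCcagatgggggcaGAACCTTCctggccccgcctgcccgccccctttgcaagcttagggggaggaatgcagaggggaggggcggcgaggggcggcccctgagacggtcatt

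The *Hspa1a* and *Hspa1b* windows differed at 3 of 250 positions (98.8% identity), and both hold GAANNTTC from 104 to 97 bases before the start. *Hspb1* holds it at 117 to 110 and at 97 to 90 bases before the start. *Hspb6* has 2 annotated starts, and the window of 1 of them holds a match 120 to 113 bases before it, whereas no match lies in those of *Dnajb1* (2 starts) or *Hspb7*. The promoter table held 6 of the 10 genes, with 8 windows, and not *Hspa8*, *Hsp90aa1*, *Hsp90ab1* or *Cryab*. At least 1 match lay in 4 of the 8 windows, each of a different gene. GAANNTTC lies in 6.69%, TTCNNGAA in 7.17% and either of them in 12.8% of all 32851 windows of this length. Although the 2 inducible Hsp70 genes share nearly all of these bases, their array probes, of 60 bases each, have no run of more than 5 bases in common. Whether each probe reads its own transcript alone was not tested.

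Values are log2 processed signals minus the array's own 75th percentile over probes seen well above background on all 6 arrays, so 0 is a fairly bright probe and a step of 1 is a doubling. Signals of different probes are not compared, because probes differ in how well they hybridise. Between 41.9% and 47.8% of spots per array were well above background and none was saturated. NEXN-WT replicate 1 stood apart from the other 5 arrays, by a mean absolute difference of 0.37 to 0.55, where the others lay 0.19 to 0.32 apart. All arrays shared 1 slide and 1 scan, and slide row 2 held NEXN-S437E replicates 2 and 3 only. All 9 cardiomyocyte marker genes were well above background on all 6 arrays. The deletion of *Clk4* could not check the labels, since both groups carry it. The only *Clk4* probe bright enough to test differed by 0.06, and the 2 *Nexn* probes by -0.06 and 0.06. Whether these probes read the viral transcript was not stated in the sources used here.

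No member probe passed either threshold. At the study's rule of a 2-fold change with an unadjusted p below 0.05 (limma), 0 of 16 member probes were called, against 2.57% of all 22998 tested probes, and at an adjusted p below 0.05, 0 of 16 against 0.148%. The unadjusted p alone was below 0.05 for 0 of 16 member probes and 16.4% of all. The lowest adjusted p of a member was 0.339. The groups did not overlap for 4 of 16 member probes, all higher with NEXN-S437E, against 26.8% of all tested probes in either direction and 14.4% in that direction. Of the 16 differences 12 lay above 0, against 51.4% of all tested probes, with a median log2 fold change of 0.12 beside 0.01 over all tested probes. That median was -0.03 without NEXN-WT replicate 1 and -0.0026 in the normalized values the authors deposited, so its sign did not hold under all settings. With 3 hearts against 3, the smallest p an exact two-sided permutation test can give is 0.1. In bulk tissue, fewer cells of a type and less RNA per cell cannot be told apart.

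**Figure D1:**
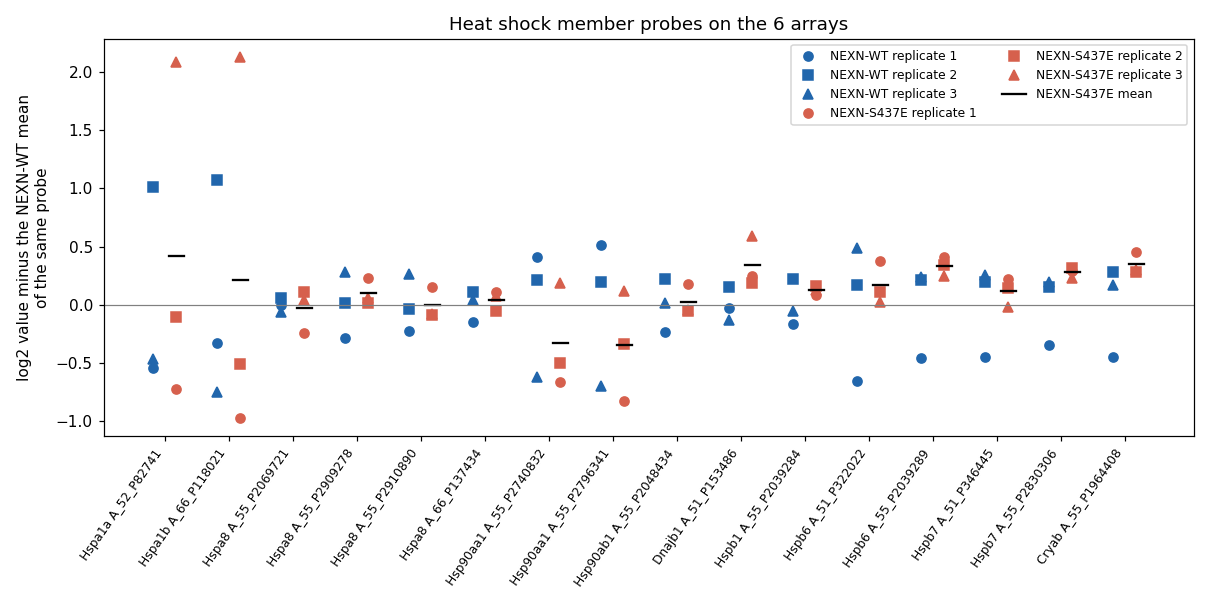
Log2 value of each of the 16 tested member probes on the 6 arrays (y axis, minus the probe's NEXN-WT mean); blue points are NEXN-WT, red points NEXN-S437E, marker shapes give the replicate, and a black bar is the NEXN-S437E mean. For *Hspa1a* and *Hspa1b* 1 array of each group sits well above the others, and for the 6 small heat shock protein probes NEXN-WT replicate 1 is the lowest point.

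The inducible Hsp70 genes varied more between hearts of the same group than between the groups. *Hspa1a* and *Hspa1b*, neighbours on chromosome 17, encode nearly the same stress-induced Hsp70. The *Hspa1a* probe (A_52_P82741, mm9 chr17:35106766-35106825) read -0.84, 0.72 and -0.76 in NEXN-WT replicates 1 to 3 and -1.02, -0.39 and 1.80 in NEXN-S437E replicates 1 to 3. The *Hspa1b* probe (A_66_P118021, mm9 chr17:35093374-35093405, a span that the array files give as shorter than the probe's 60 bases) read -1.77, -0.37 and -2.19 in NEXN-WT and -2.42, -1.95 and 0.69 in NEXN-S437E. One heart of each group, NEXN-WT replicate 2 and NEXN-S437E replicate 3, was therefore high for both genes, while the other 4 lay close together and the groups overlapped.

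From the lowest to the highest array the signal spanned 7.02-fold for *Hspa1a* and 8.62-fold for *Hspa1b*. The pooled SD within groups was 1.22 for *Hspa1a* and 1.36 for *Hspa1b*, at the 99.8th and 99.9th percentiles of all tested probes. These are descriptions of 6 hearts. The same 2 hearts were high in the deposited normalized log2 values, where *Hspa1b* was 9.58 in NEXN-WT replicate 2 and 10.6 in NEXN-S437E replicate 3 and between 7.58 and 8.09 in the other 4.

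The group difference of *Hspa1a* was 0.42 ± 0.74 (log2, SE), with a 95% interval from 0.403-fold to 4.44-fold. For *Hspa1b* it was 0.21 ± 0.83, with an interval from 0.303-fold to 4.44-fold. Neither passed a test (limma adjusted p = 0.789 and 0.907; exact permutation p = 0.7 and 0.9), and neither interval excludes a 2-fold change in either direction. Both differences turned with single arrays: without NEXN-S437E replicate 3 they were -0.41 for *Hspa1a* and -0.74 for *Hspa1b*. With neither of the 2 high hearts, *Hspa1a* differed by 0.09 and *Hspa1b* by -0.20.

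**Figure D2:**
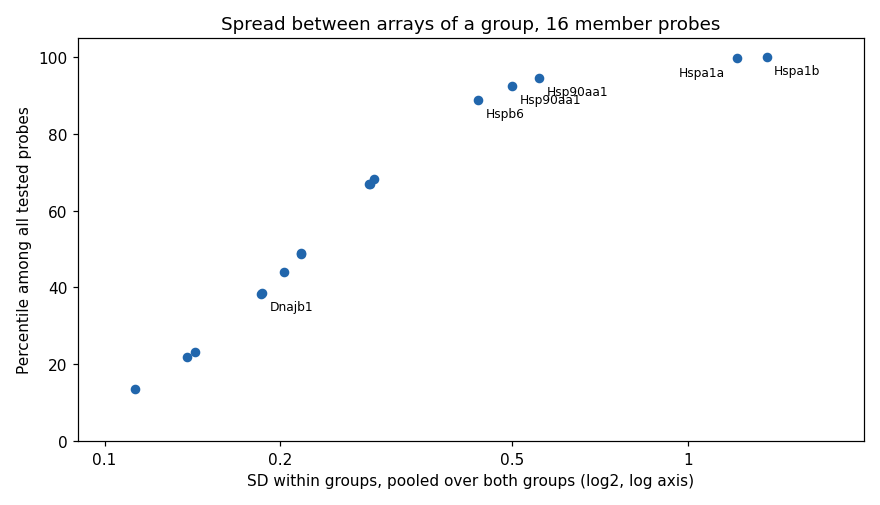
Pooled within-group SD of each of the 16 tested member probes (x axis, log2 units on a log axis) against its percentile among all tested probes (y axis). *Hspa1a* and *Hspa1b* lie above the 99th percentile and the 2 *Hsp90aa1* probes at 92.4 and 94.6, whereas *Hspa8* lies between 13.4 and 48.8.

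Of 18905 probes of other named genes, the 5 that followed *Hspa1b* most closely over the 6 arrays were probes of *Tpm1*, *Grn*, *Hspa1a*, *Ddb1* and *E230006M18Rik*, with Pearson r of 0.994, 0.992, 0.983, 0.981 and 0.970. All of these values come from the same 6 arrays. When the 2 high arrays were left out, r was 0.902 for *Tpm1*, 0.841 for *Grn*, 0.494 for *Hspa1a*, 0.288 for *Ddb1* and 0.303 for *E230006M18Rik*, so the last 3 rested on those 2 arrays more than the first 2 did. The *Grn* probe (A_52_P508750) had the widest swing, with -1.12, 2.05 and -1.75 in NEXN-WT and -1.61, -1.13 and 3.44 in NEXN-S437E. *Grn* encodes the secreted and lysosomal protein progranulin. Its other 2 probes did not follow this pattern: A_55_P2506040 stayed between -1.65 and -1.01 and A_55_P2909287 between 3.73 and 4.15. The *Grn* probe shares no run of more than 6 bases with either Hsp70 probe. This compares the probes alone, and whether the *Grn* probe reads another transcript was not tested. Of the other members, *Dnajb1* (r = 0.711) and the 2 *Hsp90aa1* probes (r = 0.664 and 0.586) came closest to *Hspa1b*. Without the 2 high arrays *Dnajb1* gave -0.353 and the *Hsp90aa1* probes 0.817 and 0.915, over 4 arrays only. Values as large, of either sign, were found for other members over these 4 arrays. *Hspa8* gave 0.828 with A_55_P2069721 and -0.991 with A_66_P137434, *Hsp90ab1* gave -0.978 and *Cryab* -0.819.

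**Figure D3:**
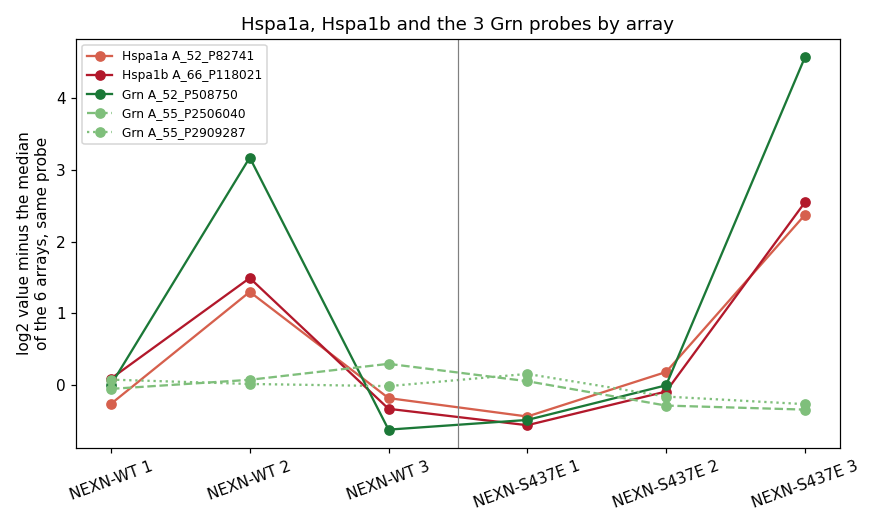
Log2 value on each of the 6 arrays (x axis), minus the probe's median over the arrays (y axis), for *Hspa1a*, *Hspa1b* and the 3 *Grn* probes. *Hspa1a*, *Hspa1b* and *Grn* A_52_P508750 peak on NEXN-WT replicate 2 and NEXN-S437E replicate 3, while the other 2 *Grn* probes stay nearly level.

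*Hspa8*, the constitutive Hsp70 that serves protein folding and clathrin uncoating in unstressed cells, was among the steadiest members. Its 4 probes differed between the groups by -0.03, 0.10, -0.01 and 0.04, in the order of their IDs, and the groups overlapped for each. Probe A_55_P2910890 read 2.40, 2.59 and 2.90 in NEXN-WT and 2.79, 2.54 and 2.55 in NEXN-S437E. The widest of the 4 intervals ran from 0.807-fold to 1.42-fold, so a 2-fold change of *Hspa8* lies outside all 4, although the sign of each difference turned under at least 1 setting.

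The Hsp90 genes behaved unlike each other in their spread. *Hsp90aa1*, the stress-inducible form, read 1.18, 0.98 and 0.15 in NEXN-WT and 0.11, 0.27 and 0.96 in NEXN-S437E with probe A_55_P2740832. With A_55_P2796341 it read 1.02, 0.70 and -0.20 in NEXN-WT and -0.32, 0.16 and 0.62 in NEXN-S437E. On both probes NEXN-WT replicates 1 and 2 and NEXN-S437E replicate 3 were high and the other 3 low, a pattern that shares 2 hearts with *Hspa1b*.

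The difference was -0.33 ± 0.32 (log2, SE) for the first *Hsp90aa1* probe and -0.35 ± 0.35 for the second. Neither passed (limma adjusted p = 0.618 and 0.627; exact permutation p = 0.4 for both). Single arrays moved the second probe from -0.09 (without NEXN-WT replicate 1) and -0.11 (without NEXN-S437E replicate 1) to -0.70 (without NEXN-WT replicate 3, unadjusted p of 0.0478, not called by either rule). They moved the first from -0.12 without NEXN-WT replicate 1 to -0.64 without NEXN-WT replicate 3. The remaining *Hsp90aa1* probe (A_55_P2352652) was well above background on 0 of 6 arrays and was not tested. *Hsp90ab1*, the form present without stress, read 4.76, 5.22 and 5.01 in NEXN-WT and 5.17, 4.94 and 4.95 in NEXN-S437E. Its difference was 0.03 ± 0.16, with an interval from 0.784-fold to 1.32-fold, and became -0.23 with quantile normalization.

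*Dnajb1*, the J-domain partner that hands clients to inducible Hsp70, came closest to a difference. It read 2.25, 2.43 and 2.15 in NEXN-WT and 2.52, 2.46 and 2.87 in NEXN-S437E, so every NEXN-S437E value lay above every NEXN-WT value, by 0.03 at the nearest. NEXN-S437E replicate 3, high for *Hspa1a* and *Hspa1b*, was again the highest. NEXN-WT replicate 2 was again the highest of its group, but it lay below every NEXN-S437E value. The difference was 0.34 ± 0.16 (log2, SE), a 95% interval from 0.975-fold to 1.65-fold, and it did not pass (limma adjusted p = 0.339; exact permutation p = 0.1, the smallest possible). The unadjusted p was 0.0703, and it fell below 0.05 under 4 other settings, the lowest being 0.0308 with normexp background correction. Without NEXN-S437E replicate 3 the difference was 0.22.

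The small heat shock protein genes were higher with NEXN-S437E by point estimate for all 6 probes, and none passed the test. *Cryab* read 6.06, 6.79 and 6.68 in NEXN-WT and 6.96, 6.80 and 6.81 in NEXN-S437E. Its groups did not overlap, but their nearest values lay only 0.0084 apart. The lowest value of all was NEXN-WT replicate 1. The difference was 0.35 ± 0.21 (log2, SE; limma adjusted p = 0.423; exact permutation p = 0.1), with an interval from 0.909-fold to 1.78-fold. The 5 probes of other named genes that followed *Cryab* most closely over the 6 arrays were those of *Taf6*, *Mief2*, *Zfp385a*, *Dennd4b* and *Wfdc1*, with Pearson r from 0.997 to 0.999, and from 0.928 to 0.978 without NEXN-WT replicate 1 and NEXN-S437E replicate 1, the arrays farthest from the median of *Cryab*.

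*Hspb6* encodes a small heat shock protein that protein kinase A phosphorylates in heart muscle. Its brighter probe (A_55_P2039289) read 4.54, 5.21 and 5.23 in NEXN-WT and 5.40, 5.33 and 5.24 in NEXN-S437E, a difference of 0.33 ± 0.21. Its second probe (A_51_P322022) read 0.40, 1.22 and 1.54 in NEXN-WT and 1.43, 1.16 and 1.07 in NEXN-S437E, a difference of 0.17 ± 0.29. The groups were apart on the first probe and overlapped on the second, where NEXN-WT replicate 3 was the highest.

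*Hspb7*, whose product binds the actin crosslinker filamin C in heart muscle, read 5.62, 6.13 and 6.17 in NEXN-WT and 6.26, 6.29 and 6.20 in NEXN-S437E with its brighter probe (A_55_P2830306). Its other probe (A_51_P346445) differed by 0.11 ± 0.21 (log2, SE), against 0.28 ± 0.18 for the first. *Hspb1* encodes Hsp27, which guards actin filaments, and it read 4.76, 5.15 and 4.88 in NEXN-WT and 5.01, 5.09 and 5.05 in NEXN-S437E. Its difference was 0.12 ± 0.14, and the groups overlapped, with NEXN-WT replicate 2 the highest of all. The SD of NEXN-S437E was below that of NEXN-WT for each of these 6 probes, for *Hspb1* 0.04 against 0.20, as was the median SD over all tested probes, 0.16 against 0.23.

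**Figure D4:**
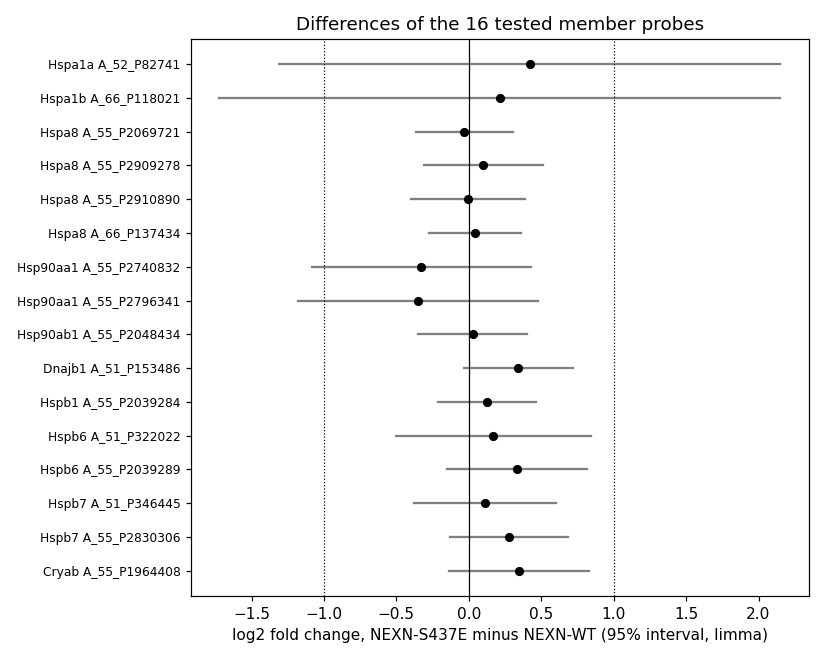
Log2 fold change of each of the 16 tested member probes, NEXN-S437E minus NEXN-WT (x axis), with its 95% interval from limma (horizontal line); dotted lines mark a 2-fold change. Each interval includes 0, and those of *Hspa1a* and *Hspa1b* reach past 2-fold on both sides.

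In the scaled values NEXN-WT replicate 1 was the lowest of the 6 arrays for 6 of 6 small heat shock protein probes. It was the lowest for 30.9% of all tested probes. This rank depends on the scaling. The percentile subtracted from that array was the highest, at a signal of 1519 against 692 to 1049 on the others. Before scaling *Hspb1* was highest there, and in the deposited values it was 14.96 there and 14.83 on NEXN-WT replicate 3. Without NEXN-WT replicate 1 the differences were 0.12 for *Cryab* and 0.04 for *Hspb1*. They were 0.10 and -0.16 for the *Hspb6* probes A_55_P2039289 and A_51_P322022, and 0.10 and -0.11 for the *Hspb7* probes A_55_P2830306 and A_51_P346445. In the deposited normalized values the differences were smaller too, 0.03 for *Cryab*, -0.10 for *Hspb1* and -0.03 for the brighter *Hspb7* probe. The *Hspb6* probes A_55_P2039289 and A_51_P322022 stayed above 0 there, at 0.08 and 0.14, as did *Hspb7* A_51_P346445 at 0.02. The same array was the lowest for 12 of 18 cardiomyocyte marker probes and the highest for 13 of 13 fibroblast marker probes. The summed level of the cardiomyocyte markers, on a linear scale with 1 at the percentile, was 353 on NEXN-WT replicate 1, 420 and 429 on the other NEXN-WT arrays and 483 to 514 with NEXN-S437E. The summed fibroblast markers were 159 on NEXN-WT replicate 1, 94.1 and 96.3 on the other NEXN-WT arrays and 64.5 to 69.7 with NEXN-S437E. None of the 18 cardiomyocyte marker probes was called by either rule in the limma fit, although 16 lay above 0, 5 of them at an unadjusted p below 0.05, and their median was 0.34. Of the 13 fibroblast marker probes 11 were called lower by the 2-fold rule, and their median was -1.63. With 2 of these left out, which fell to background on 2 or 3 NEXN-S437E arrays, 9 of 11 were called lower and the median was the same. Of the 5 T cell marker probes that all 6 arrays measured above background, 4 were called lower, 2 of them past the adjusted p in the limma fit. The *Cd3d* probe A_51_P285206 and the *Cd3g* probe A_55_P2072771, both called lower too, were near background with NEXN-S437E on all 3 arrays and so have only a bound there. The summed T cell marker level was 0.441 to 0.621 in NEXN-WT and 0.143 to 0.193 with NEXN-S437E. NEXN-S437E replicate 1 stood apart in blood cell markers. Its summed erythrocyte markers were 50.73, against 4.585 to 17.99 on the other arrays. Its summed neutrophil markers were 0.6894, against 0.105 to 0.3074. Of the 3 genes listed as skeletal muscle markers, *Acta1*, the skeletal muscle actin, was called lower (-1.36 ± 0.30), whereas *Ckm* at 0.50 was not called. The only tested *Myh4* probe (A_55_P2744670) gave 0.74 and was not called. It was dim and well above background on 2 of 3 NEXN-WT arrays, so it passed the filter through NEXN-S437E alone. Whether *Acta1* and *Ckm* were read from skeletal muscle or from heart muscle cells was not tested. The part of these markers in the small heat shock protein values was not tested.

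**Figure D5:**
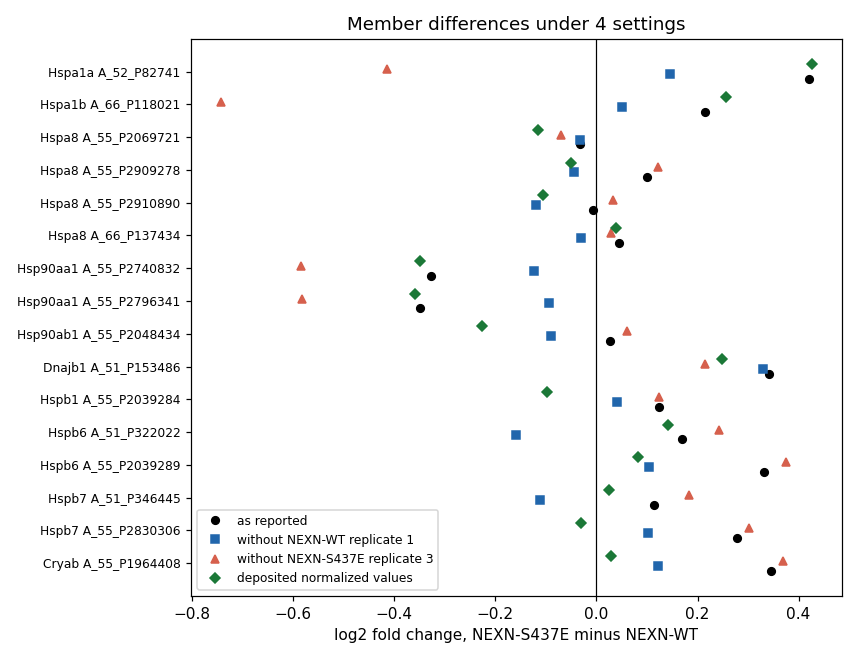
Log2 fold change of each of the 16 tested member probes (x axis) as reported, without NEXN-WT replicate 1, without NEXN-S437E replicate 3, and in the deposited normalized values. Leaving out NEXN-S437E replicate 3 takes *Hspa1a* and *Hspa1b* from 0.42 and 0.21 to -0.41 and -0.74, and *Cryab* falls from 0.35 to 0.12 without NEXN-WT replicate 1.

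No gene of the wider chaperone network was called. Of 73 other chaperone genes on the array, 67 had a tested probe, and 0 of their 122 probes passed either rule (an unadjusted p below 0.05 was reached by 8, 6 of them higher and 2 lower, where 16.4% of all tested probes reached it). Their median log2 fold change was 0.07, with 78 probes above 0 and 44 below, against 51.4% above 0 over all tested probes. *Hspb9*, a small heat shock protein best known from testis, had the largest difference. Its dim probe read -5.42, -5.37 and -5.49 in NEXN-WT and -4.65, -4.58 and -4.51 in NEXN-S437E, so the groups were far apart beside their spread. The difference was 0.85 ± 0.12 (log2, SE; limma adjusted p = 0.0788), below the 2-fold rule, and it was 0.55 with normexp background correction.

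Among the other lists, the mitochondrial chaperones had 12 of 13 probes above 0 and a median of 0.23. NEXN-WT replicate 1 was the lowest array for 10 of these 13 probes, and for 30.9% of all tested probes. The largest difference of this list was that of *Grpel1*, a nucleotide exchange factor of mitochondrial Hsp70, at 0.51 ± 0.20 (adjusted p = 0.272, limma). On that probe NEXN-WT replicate 1 was again the lowest, at 2.91, and without it the difference was 0.30. The cytosolic Hsp70 and nucleotide exchange list had a median of 0.01 over 26 probes, with a *Bag2* probe (A_55_P2713330) at 0.54 ± 0.16, whereas the groups overlapped on the brighter *Bag2* probe (A_51_P204913), which gave 0.17 ± 0.17. The other J-domain proteins had a median of 0.08 over 34 probes, and their largest difference was -0.53 ± 0.18 on a dim *Dnaja1* probe (A_55_P1992149), whereas the brighter *Dnaja1* probe (A_55_P2087984) gave -0.10. With normexp background correction the dim probe gave -0.030. The Hsp90 co-chaperones had a median of 0.02 over 24 probes and *Fkbp5*, a glucocorticoid-responsive immunophilin, at -0.52 ± 0.32. Leaving out NEXN-WT replicate 1 made it -0.19, and leaving out NEXN-WT replicate 3 made it -0.85. The TRiC chaperonin subunits had a median of 0.01 over 17 probes, with 1 dim *Cct8* probe at -0.68 ± 0.58 that turned to 0.09 without NEXN-S437E replicate 1. *Hsf1*, the heat shock transcription factor itself, differed by 0.25 ± 0.18, the most of the 4 tested genes of the heat shock factor list. Its difference was 0.09 without NEXN-WT replicate 1 and 0.016 with array weights.

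Of the genes kept beside the chaperones, the brightest of 3 tested probes of *Cirbp*, a cold-inducible RNA binding protein gene, read 1.11, 1.26 and 1.60 in NEXN-WT and 2.00, 1.90 and 2.04 in NEXN-S437E. The groups did not overlap on it and differed by 0.66 ± 0.16 (log2, SE; limma adjusted p = 0.158). They overlapped on the dimmer *Cirbp* probes A_55_P1985001 and A_55_P2506450, which differed by 0.20 ± 0.25 and 0.35 ± 0.24. *Rbm3*, the second cold-inducible gene, differed by 0.01 to 0.18 over 3 tested probes. Of 8 immediate-early genes, which respond within minutes to many stimuli, 7 had a difference below 0 and 1 was called, against 2.57% of all tested probes. NEXN-WT replicate 1 was the highest array for 5 of the 8 probes, and for 32% of all tested probes. *Egr2* read -0.46, -2.74 and -2.39 in NEXN-WT and -3.57, -4.00 and -4.00 in NEXN-S437E, with its highest value on NEXN-WT replicate 1. It fell by 1.99 on the log2 scale, past the 2-fold rule (limma adjusted p = 0.179), and by 1.29 without NEXN-WT replicate 1. The call was lost with the methods' t-test and with slide row as a block, where the difference was -1.70. *Egr1* differed by -0.93 ± 0.29 with no overlap between the groups, which stayed under the 2-fold rule (limma adjusted p = 0.214). *Fos* differed by -0.26 ± 0.40 and was highest on NEXN-WT replicate 1, at -3.41. *Jun* differed by 0.07 ± 0.18, and its 2 highest values, 2.38 on NEXN-S437E replicate 3 and 2.23 on NEXN-WT replicate 2, fell on the 2 hearts that were high for *Hspa1a* and *Hspa1b*.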

How the data were processed

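The members and the other lists were chosen with earlier results of these data known. The authors deposited one-colour intensity values per spot, extracted with Agilent Feature Extraction 10.7.1.1, which subtracts background, and a series table with log2 normalized values per probe, whose 6 columns have identical distributions; their normalization is not given in the sources used here. The intensity values were not scaled between arrays. From them, control spots and outlier spots were dropped, spots of a probe averaged, log2 taken and each array's 75th percentile subtracted over probes well above background on all 6 arrays, since under 50% of spots were detected. The 22998 probes that passed this mark on the 3 arrays of at least 1 group were tested with limma 3.58.1 in R 4.3.3, NEXN-S437E against NEXN-WT, with Benjamini-Hochberg adjustment over all of them. Calls needed an adjusted p below 0.05, or a 2-fold change with an unadjusted p below 0.05. The fit was tested on simulated data of 22987 probes for this comparison. Of 100 probes changed 2-fold, 95 had p below 0.05 and 50 passed the adjusted p (limma). In the same simulated data with no probe changed, 80 were called by the 2-fold rule and 0 by the adjusted p. The simulated noise was independent for each probe and array, with the same SD in both groups. It held no array that stood apart, so these figures may not carry over to the real arrays. Precision is limited by the number of arrays. Probe positions are mm9 and promoter positions GRCm38.p6; no genome was used, so probes were not placed in exons. All members were named, and of the other chaperone lists those past a threshold and the largest difference. The cardiomyocyte, fibroblast and T cell marker lists are given by counts and summed levels. The erythrocyte and neutrophil lists are given by summed levels and the skeletal muscle list by gene. No probe of the endothelial, smooth muscle and pericyte, macrophage, erythrocyte or neutrophil lists was called by either rule. Alternatives changed the scaling, background correction, filter, test, threshold, blocks and the arrays used.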

Additional observations from a re-analysis of the deposited data

How the results depend on the processing

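No member probe was called by either rule under any alternative on the tested probes. Without the filter on dim probes 1 was called, the *Hsp90aa1* probe that was near background on all 6 arrays (1.15). For the other chaperone genes that setting called 2 dim probes, the slide row block, which sets the 3 NEXN-WT arrays against NEXN-S437E replicate 1 alone, called 1 (*Cct8*, -2.20), and a 1.5-fold threshold called 1. The median of the members ranged from -0.03 to 0.22 over the arrays left out and from -0.02 to 0.25 over the other settings. Over all tested probes, 590 were called at 2-fold, against 176 with normexp, 1948 without the filter, 354 with the filter on all 6 arrays, 1916 at 1.5-fold, and 375 (without NEXN-WT replicate 1) to 917 (without NEXN-WT replicate 3) with an array left out. At the adjusted p, 34 passed, against 6 without the filter, 18 with the filter on all 6 arrays, 0 with the methods' t-test (416 at 2-fold) and 0 with the slide row block (802 at 2-fold), 2098 with array weights, 12 with the replicate block and 6 (without NEXN-WT replicate 2) to 124 (without NEXN-WT replicate 1) with an array left out. With the 2 arrays of highest *Hspa1a* and *Hspa1b* left out, a choice made after seeing the data, 0 passed (785 at 2-fold).

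The replicate numbers share only a number: deviations of same-numbered arrays correlated at -0.15, -0.03 and -0.18. The replicate block left 597 probes called at 2-fold and 0 member probes called.

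Over the 14 settings that can move a member's difference, 190 of 224 member values kept their direction and 34 did not, and none was called. The other 5, which change only the test, the replicate block or the filter on probes, leave it as it is. Quantile normalization gave -0.050 for *Hspa8* A_55_P2909278, -0.23 for *Hsp90ab1*, -0.10 for *Hspb1*, -0.038 for *Hspb7* A_55_P2830306 and -0.0083 for *Cryab*. The deposited normalized values gave -0.049, -0.23, -0.10 and -0.030 for the first 4 of these. The percentile over all probes, which raised the median of all probes by 0.08, gave 0.045 and 0.071 for *Hspa8* A_55_P2069721 and A_55_P2910890. Array weights gave -0.042 for *Hspa8* A_66_P137434, -0.18 for *Hsp90ab1*, -0.016 for *Hspb1*, -0.091 for *Hspb6* A_51_P322022 and -0.12 for *Hspb7* A_51_P346445. The slide row block gave -0.72 for *Hspa1a*, -0.98 for *Hspa1b* and 0.16 for *Hspa8* A_55_P2910890, and the values within slide row 1, chosen after seeing the data, were the same. With the 2 high arrays left out, *Hspa1b* was -0.20 and *Hspa8* A_55_P2910890 0.012.

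With single arrays left out, *Hspa1a* ranged from -0.41 to 0.99, *Hspa1b* from -0.74 to 0.81, *Hspa8* from -0.10 to 0.074, -0.044 to 0.24, -0.12 to 0.13 and -0.031 to 0.10 by probe, *Hsp90aa1* from -0.64 to -0.12 and -0.70 to -0.09, *Hsp90ab1* from -0.09 to 0.14, *Hspb6* A_51_P322022 from -0.16 to 0.41 and *Hspb7* A_51_P346445 from -0.11 to 0.24. *Cct8* ranged from -1.16 to 0.085 and gave 0.11 with normexp. *Rbm3* (0.01) ranged from -0.15 to 0.14 and gave -0.062 with quantile normalization, -0.062 in the deposited values, -0.040 with normexp, -0.26 with the slide row block and -0.21 without the 2 high arrays. *Egr2* was no longer called with the methods' t-test or the slide row block, and *Hspb9*, *Bag2* and *Cirbp* passed the adjusted p with array weights. The same *Bag2* probe, A_55_P2713330, fell from 0.54 to 0.32 with the slide row block and to 0.44 without the 2 high arrays. The causes were not tested.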
